A study of Mus musculus with 2 samples.

Results

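The synaptic SNARE proteins and their complexin partners were described in adult mouse cortex by 8 genes, matched by symbol in the deposited tables: Snap25, Snap23, Snap47, Vamp1, Vamp2, Stx1a, Cplx1 and Cplx2. They are 8 of 55536 annotated genes, of which 22028 are protein coding, and each was matched to 1 gene entry. The libraries held total RNA, with ribosomal RNA reduced, from cortex of the left hemisphere of 2 males of the F1 hybrid B6CASTF1/J (B6 by Cast), aged 8 to 10 months. Each was made from 300 ng of RNA with ERCC spike-ins, which are synthetic RNAs added in known amounts. The labels give no treatment, no transgene and no second condition, so the data hold 1 group and no comparison of conditions. The libraries are called replicate 1 (animal 2 in the labels) and replicate 2 (animal 4). They carry the same donor label, so only the animal numbers say that the animals are distinct.

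SNARE proteins drive the fusion of membranes inside cells. At a synapse the vesicle SNARE (a synaptobrevin, encoded by Vamp1 or Vamp2) zippers with a syntaxin and SNAP-25 of the plasma membrane into a tight helical bundle, and this pulls the vesicle onto the membrane so that transmitter is released. Complexins bind the assembled bundle and both hold it back and make it ready for the calcium signal sensed by synaptotagmin. The same SNAREs are the targets of the clostridial neurotoxins, and syntaxin-1A, synaptobrevin-2 and SNAP-25 are among the classical SNAREs of nerve terminals.

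The sequences shown first are those by which near-identical forms of 1 member, or of a pair of members, are told apart. Snap25 has an alternative exon 5 in 2 versions, and each coding transcript holds 1 of them. The versions lie side by side on the plus strand of chromosome 2, with 196 bases between them. Each is 118 bases long, and they differ at 31 bases, printed in capitals, 5′ to 3′, from the GENCODE M21 transcripts on mm10. The downstream version is at chr2:136770057-136770174 and the upstream version at chr2:136769743-136769860.
Snap25-201 exon 5: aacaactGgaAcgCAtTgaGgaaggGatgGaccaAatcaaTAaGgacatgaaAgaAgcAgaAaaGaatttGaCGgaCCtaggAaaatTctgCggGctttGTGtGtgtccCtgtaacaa
Snap25-202 exon 5: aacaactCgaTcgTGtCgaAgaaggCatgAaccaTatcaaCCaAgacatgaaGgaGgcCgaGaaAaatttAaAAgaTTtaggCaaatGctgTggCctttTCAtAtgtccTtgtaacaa
The differing bases fall in 26 codons, from codon 57 to codon 91, and 9 of these codons encode another amino acid, out of 206 amino acids encoded. The downstream version gives the form known as SNAP-25b, the main form of the adult brain, and the upstream version gives SNAP-25a, which is known as the earlier form in development.

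The synaptobrevins are shown at the middle of their SNARE helix, because both genes were measured side by side and their proteins do the same work there. The window is centred on the arginine of the helix (codon 56 of Vamp2 and codon 58 of Vamp1) that sits in the central polar layer of the bundle. It lies at chr11:69089743-69089805 in Vamp2 and at chr6:125218923-125218985 in Vamp1, both on the plus strand of mm10, and capitals mark the bases that differ.
Vamp2-201 centre: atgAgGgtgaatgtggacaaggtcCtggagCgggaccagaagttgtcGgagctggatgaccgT
Vamp1-201 centre: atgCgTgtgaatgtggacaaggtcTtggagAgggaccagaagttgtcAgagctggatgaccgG
Over these 63 bases, or 21 codons, the genes differed at 6 bases and in 0 encoded amino acids. Over the whole coding sequence of the leading transcripts, Vamp1 and Vamp2 were identical at 75.0% of aligned columns, Cplx1 and Cplx2 at 79.6%, and Snap25 and Snap23 at 61.4%. The longest run of bases that the leading transcripts of a pair shared was 18 for Vamp1 and Vamp2, 25 for Snap25 and Snap23, and 32 for Cplx1 and Cplx2.

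Levels are given in TPM, a transcript abundance that scales counts by transcript length to a fixed total and so allows genes to be set beside each other. Here ± marks the SD over the 2 animals (n = 2), and no test was made, since the data hold 1 group. Over 12994 protein-coding genes with at least 1 TPM in both animals the median level was 16.3 TPM. Of the 8 members, 7 stood above that median, and Snap23 stood below it. The members summed to 2713 TPM in replicate 1 and 2844 TPM in replicate 2, or 0.556% ± 0.00782 of the TPM of protein-coding genes. In bulk tissue a lower level can mean fewer cells of a type or less RNA per cell, and these cannot be told apart.

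Among the members of the SNAP-25 family, Snap25 led by far. Snap25 (ENSMUSG00000027273.13, chr2:136713453-136782428, plus strand) had 1227 TPM in replicate 1, 1289 TPM in replicate 2, and on average 1258 ± 44.1 TPM. This put it at rank 9 among the expressed protein-coding genes, and it alone held 45.2% and 45.3% of the members' summed TPM. Snap47 (ENSMUSG00000009894.15, chr11:59407134-59451186, minus strand), a SNAP-25 relative without the palmitoylated cysteines that anchor SNAP-25 in the membrane, stood at 176 and 183 TPM (rank 391). It shares 307 exon bases with Jmjd4 on the opposite strand, which was listed at 11.43 and 11.99 TPM. No window of 50 bases in its leading transcript, Snap47-201, was found in transcripts of other genes on either strand. If counting ignored the strand, the overlap would thus bear mainly on the other annotated forms of Snap47, which was not tested. Snap23 (ENSMUSG00000027287.14, chr2:120567671-120601255, plus strand), the widely expressed relative that serves fusion in many cell types outside neurons, stood at 8.67 and 9.82 TPM (rank 8703). In TPM, Snap25 was 6.96 times Snap47 in replicate 1 and 7.04 times in replicate 2, and it was 136 ± 7.22 times Snap23 on average. The size of the Snap23 ratio depended on the processing: it was 71.35 and 100.3 (mean 85.8 ± 20.5, SD, n = 2) by the second deposited quantification of the same libraries, and 268.5 on average by counts per full length of the leading transcripts.

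Stx1a (ENSMUSG00000007207.10, chr5:135023482-135051100, plus strand) encodes syntaxin-1A, a plasma membrane SNARE anchored by its own membrane segment. It had 109.5 TPM in replicate 1, 113 TPM in replicate 2, and on average 111 ± 2.56 TPM (rank 816). Set against Stx1a, Snap25 was 11.3 ± 0.137 times as high and Vamp2 4.02 ± 0.0658 times.

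Both synaptobrevin genes were expressed, and Vamp2 led. Vamp2 (ENSMUSG00000020894.16, chr11:69088490-69092384, plus strand), the main vesicle SNARE of forebrain synapses, stood at 435 and 460 TPM, on average 448 ± 17.6 TPM (rank 82). Vamp1 (ENSMUSG00000030337.16, chr6:125215551-125245964, plus strand), which is best known from motor nerve terminals, brainstem and spinal cord, stood at 59.9 and 61.4 TPM, on average 60.7 ± 1.02 TPM (rank 1817). The ratio of Vamp2 to Vamp1 was 7.263 in replicate 1 and 7.497 in replicate 2, on average 7.38 ± 0.166. Snap25 in turn was 2.81 ± 0.0120 times Vamp2.

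The complexin genes stood close to each other. Cplx2 (ENSMUSG00000025867.8, chr13:54371349-54383917, plus strand) stood at 372 and 389 TPM, on average 381 ± 12.3 TPM (rank 117), and Cplx1 (ENSMUSG00000033615.9, chr5:108518554-108550024, minus strand) at 324 and 338 TPM, on average 331 ± 9.36 TPM (rank 146). Their ratio was 1.15 ± 0.00448, with Cplx2 the higher in both animals. By sum the complexins were 0.566 ± 0.00266 times Snap25.

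From high to low the order of levels was Snap25, Vamp2, Cplx2, Cplx1, Snap47, Stx1a, Vamp1 and Snap23. All 8 members had the same rank in replicate 1 as in replicate 2, and in all 7 pairs of neighbours the values of the animals did not overlap. The second quantification was then set beside the first. Its TPM values were spread over other shares of protein-coding genes (46.7% of TPM in replicate 1 and 66.7% in replicate 2, against 49.3% and 50.6% in the first), so levels were rescaled to the same total over protein-coding genes. On that scale the second gave 0.979 times the first for Snap25, 1.02 times for Vamp2, 0.898 times for Cplx2, 0.909 times for Cplx1, 1.20 times for Snap47, 0.984 times for Stx1a and 0.906 times for Vamp1. Snap23 moved most, to 33.7 and 25.2 rescaled TPM in the second quantification, against 17.6 and 19.4 in the first. The order of all 8 was the same in it, and again 7 of 7 neighbour pairs did not overlap.

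**Figure D1:**
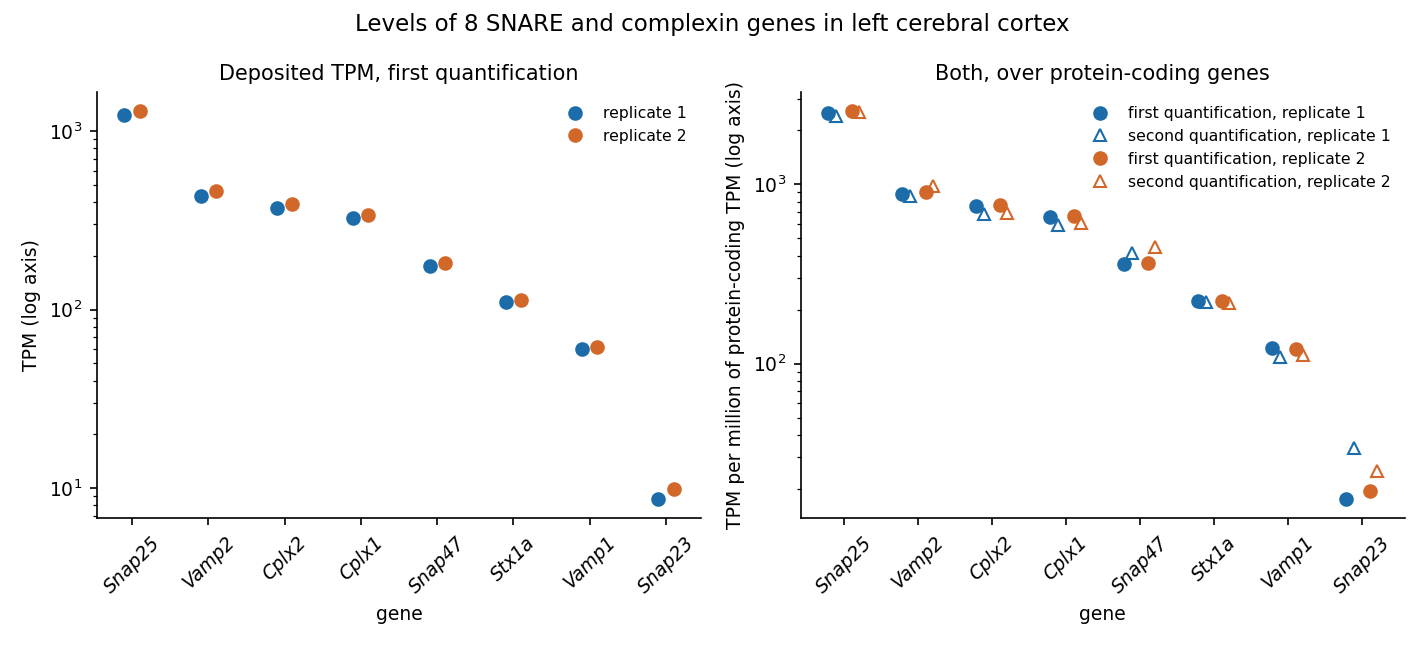
Levels of the 8 genes, from the highest to the lowest, with 1 point for each animal. The left panel shows deposited TPM on a log axis, and the right panel shows both quantifications rescaled to the same total over protein-coding genes, also on a log axis. Snap25 stands above the other 7 in both panels (1227 and 1289 TPM), and Snap23 below them (8.67 and 9.82 TPM), with the widest gap between the quantifications.

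Within Snap25, the transcript with the downstream exon 5 led in both animals and by both quantifications. Snap25-201 had 1102 TPM in replicate 1 and 1143 TPM in replicate 2, or 89.9% and 88.7% of the gene. Snap25-202, with the upstream exon, had 119 and 139 TPM, or 9.70% and 10.8% of the gene. Its assignment uncertainty, computed from the deposited posterior SD of its count and scaled to the share, came to 0.267 and 0.264 percentage points, which covers assignment only and not the variation between animals. The second quantification gave Snap25-201 88.2% and 85.4% and Snap25-202 11.5% and 14.1%. Snap25-202 was higher in replicate 2 than in replicate 1 by both, and the quantifications use the same reads, so they are not independent.

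The ratio of Snap25-201 to Snap25-202 in TPM was 9.27 in replicate 1 and 8.20 in replicate 2, and 7.70 and 6.05 in the second quantification. In TPM, Snap25-202 alone stood above the whole of Stx1a, at 119 and 139 TPM, against 109.5 and 113 TPM for Stx1a. By expected counts, which are not scaled by length, the order was the other way round, with 1913 and 2439.7 for Snap25-202, against 3655 and 4188 for Stx1a. The annotated transcripts also differ outside exon 5. Snap25-201 holds 1220 bases that Snap25-202 lacks, 1077 of them at the end of the last exon, whereas Snap25-202 has only its 118 bases of exon 5 to itself. The share therefore combines the choice of exon with the annotated 3′ end, and these tables do not separate them. Snap25-202 held 4.61% and 5.18% of the gene's expected counts.

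The third annotated form, Snap25-203, is non-coding and keeps 4557 bases of intron 3 (chr2:136758353-136762909). It had 5.31 and 6.41 TPM, or 0.43% and 0.50% of the gene, from 447 and 587 expected counts. The second quantification gave 0.398% and 0.458%.

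**Figure D2:**
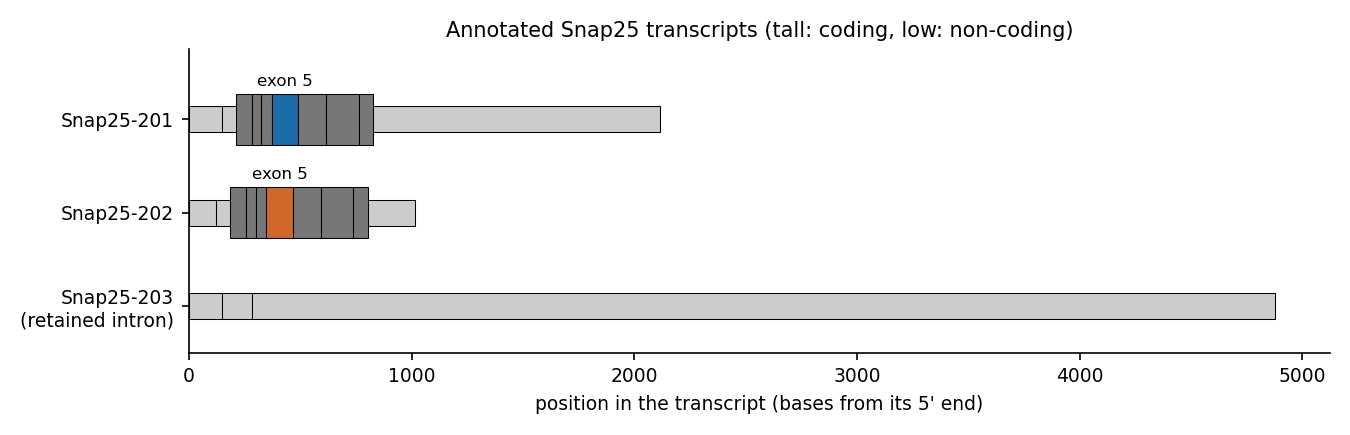
Map of the 3 annotated Snap25 transcripts, drawn to scale in bases from the 5′ end of each, with coding parts tall, non-coding parts low and the alternative exon 5 in colour. The coding transcripts have exons 2 to 7 of equal length, and Snap25-201 runs on for 1077 bases in the last exon; Snap25-203 consists mostly of 4557 bases of intron.

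The leading transcript of Snap47, Snap47-201, held 95.02% and 95.66% of the gene in the first quantification, and 68.0% and 63.0% in the second. The gap lay in 3 shorter transcripts, Snap47-204, Snap47-206 and Snap47-208, which share an exon of 50 bases (chr11:59442792-59442841) upstream of the start codon. Together they held 1.11% and 2.20% by the first quantification, against 31.6% and 36.5% by the second. Within that sum the second gave Snap47-204 28.0% and 7.34% and Snap47-208 0.694% and 21.3%, so the assignment among them changed between the animals far more than their sum did. Their share of estimated counts was lower, 9.21% and 12.7%. The level of these forms depended on the quantification and was not resolved.

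Vamp2-201 held 95.7% and 96.2% of Vamp2 in the first quantification, and 91.4% and 82.2% in the second. The rest of the second lay mainly in Vamp2-204, a non-coding form that keeps the 478 bases of intron 1 (chr11:69088628-69089105). It held 6.65% and 16.1% there, against 0.660% and 0.870% in the first. Its level was thus uncertain as well.

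Vamp1 has coding forms with different ends. Vamp1-203 reads on into an intron where Vamp1-201 splices to its last exon, so the last residues of the membrane anchor differ. Both stretches start at base 125219586 of chromosome 6 on the plus strand of mm10. That of Vamp1-201 spans 2 exons within chr6:125219586-125220066 and that of Vamp1-203 is chr6:125219586-125219651. Capitals mark the bases of each form after the shared 52, stop codon included.
Vamp1-201 coding end: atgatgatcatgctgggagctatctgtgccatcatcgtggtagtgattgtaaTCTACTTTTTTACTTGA
Vamp1-203 coding end: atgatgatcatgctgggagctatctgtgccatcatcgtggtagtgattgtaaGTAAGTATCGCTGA
Vamp1-201 led, with 87.7% and 90.9% of the gene in the first quantification and 83.7% and 85.1% in the second. Vamp1-203 held 8.06% and 6.03% by the first and 11.9% and 7.03% by the second, the higher share in replicate 1 by both. Its assignment uncertainty, computed in the same way, was 1.05 and 0.866 points. The non-coding Vamp1-205 held 0.760% and 1.22% by the first and 2.68% and 5.66% by the second.

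Stx1a-201 held 84.9% and 87.4% of Stx1a, and 81.0% and 85.9% in the second quantification. Stx1a-203, a short form annotated as non-coding, held 10.4% and 7.44%, and 12.1% and 8.60% in the second. It was the higher in replicate 1 by both, on 98.7 and 79.6 expected counts. Cplx2 has 1 annotated transcript. Cplx1-201 held all of Cplx1, since Cplx1-202 was listed at 0 in both animals by both quantifications.

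Snap23 was the member whose transcripts could not be told apart. It has 9 annotated transcripts for 227 and 201 counts, of which 8 reached 5% of the gene in at least 1 animal or quantification. Snap23-202 held 43.6% and 27.7% by the first quantification, but 0.00353% and 16.9% by the second. Snap23-204, annotated as non-coding, held 11.0% and 39.6% by the first, and 13.3% and 6.08% by the second. Snap23-208, annotated as a target of nonsense-mediated decay, held 26.2% and 2.37% by the first, and 4.69% and 20.2% by the second. Snap23-207, with a retained intron, held 12.8% and 16.5% by the first, and 18.7% and 28.6% by the second. Snap23-201 and Snap23-209 held 14.6% and 27.0% in replicate 1 by the second quantification, and were listed at 0 in replicate 2 and in both animals by the first. Snap23-205 ranged from 1.77% to 13.8%, and Snap23-206 from 0% to 15.2%. No form led in both animals by both quantifications.

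**Figure D3:**
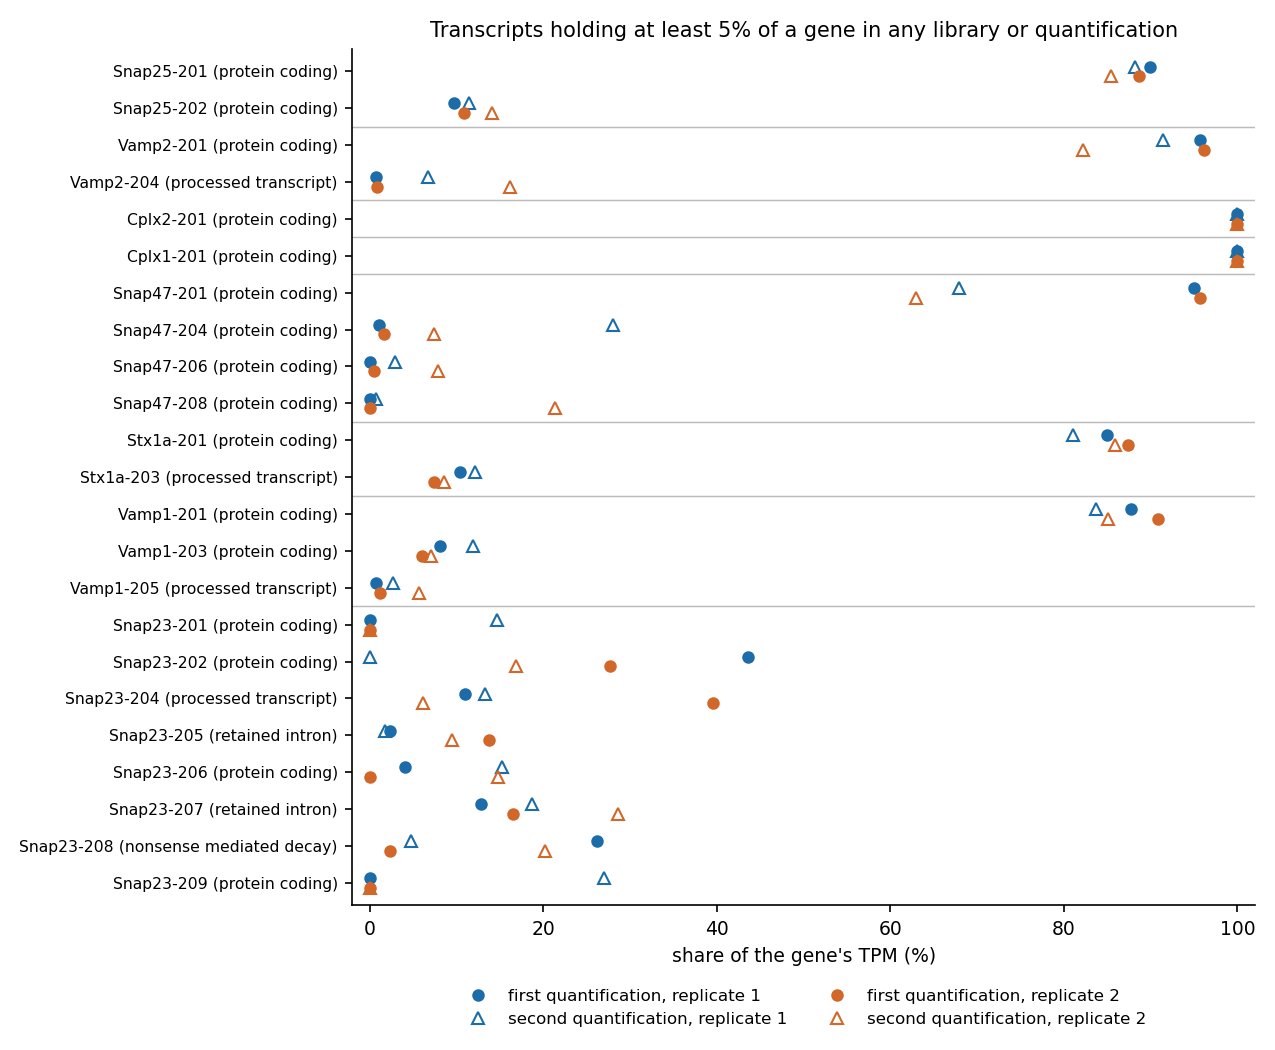
Share of each gene's TPM, in percent, held by every transcript that reached 5% in any animal or quantification, with filled circles for the first quantification and open triangles for the second. The 4 points of Snap25-201 lie between 85.4% and 89.9%, those of Snap47-201 split by quantification, and those of Snap23 scatter.

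The animals were compared by counts, as replicate 1 over replicate 2 on the log2 scale after TMM scaling (a correction for library composition), with exact binomial intervals of 95% that cover counting error only. With 1 library for each animal, a difference between them has no replicate check. Snap25 had 41463 and 47147 counts, the highest of the members, and a ratio of -0.01 (interval -0.03 to 0.01). Cplx2 had 31605 and 35990 counts, Vamp2 15641 and 18068, and Cplx1 11919 and 13498. Snap47 had 5390 and 6127 counts, Stx1a 3655 and 4188, and Vamp1 2794 and 3175. The larger numbers in replicate 2 go with its larger library, which held 30143684 expected counts, against 26925514 in replicate 1.

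After scaling, the ratios of 7 members lay between -0.04 (Vamp2, interval -0.07 to -0.004) and -0.006 (Cplx1). Only the interval of Vamp2 left out 0 among these. Snap23 had 227 and 201 counts and a ratio of 0.35 (interval 0.07 to 0.63), 1.27-fold higher in replicate 1. In TPM it was the lower in replicate 1, by -0.18 on the log2 scale, and the effective length that the deposited table gives the gene, a mean over its assigned transcripts, was 1489 bases in replicate 1 and 1069 bases in replicate 2. Of the 8 members 1, Snap23, was at least 0.32 apart on the log2 scale, against 23.4% of the 18284 genes that averaged 10 counts or more, and 0 were 2-fold apart, against 3.56%. By the second quantification the ratio of Snap23 was 0.25, and 0 members were 0.32 apart. The median ratio was -0.01 over the members and -0.002 over all genes tested. By size alone the median difference was 1.01-fold over the members and 1.10-fold over all genes.

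These genes differ in depth from most others, and low counts vary more. The coefficient of variation between animals that edgeR fitted at the members' abundance was 0.139 for Snap23 and 0.0700 to 0.0836 for the other 7, and the common value over all genes was 0.109. At least as far apart as Snap23 were 21.6% of all genes tested. ERCC scaling shifts all genes alike: the median of all genes moved to 0.06, and the 7 slightly negative ratios to between 0.03 and 0.06. No direction is given for these 7.

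**Figure D4:**
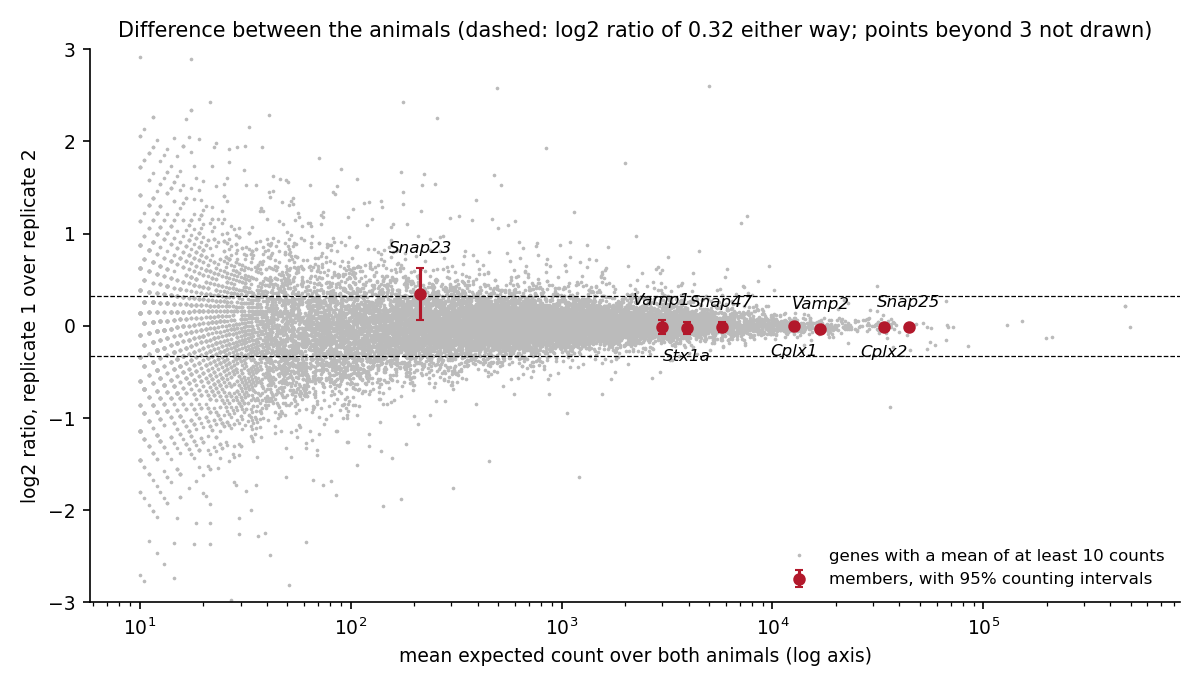
Log2 ratio of replicate 1 over replicate 2 against the mean expected count on a log axis, for all genes averaging 10 counts or more (grey) and the 8 members (red, with 95% counting intervals). Dashed lines mark a log2 ratio of 0.32 either way. Snap23, at 227 and 201 counts, lies just past the line, and the other 7 lie within 0.04 of 0.

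The other genes of membrane fusion were described from 53 genes in 7 groups, of which 52 had an entry. By mean TPM 0 of the 52 stood above Vamp2, and 9 stood below Snap23. These counts and the levels that follow are from the first quantification unless the second is named. Of 49 that averaged 10 counts or more, 0 were at least 0.32 apart on the log2 scale between the animals, against 23.4% of all genes. The values farthest from 0, 0.316 and -0.315, lay just inside that threshold, and the genes compared were not matched in depth. Their median ratio was -0.003.

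Among the other SNAREs of the plasma membrane (6 genes reported), the median was 8.05 TPM in replicate 1 and 8.95 TPM in replicate 2, and Stx4a, a syntaxin of many cell types, was the highest of them at 31.9 ± 4.62 TPM. Stx19 was listed at 0 TPM in both animals. Of the other vesicle SNAREs (5 genes), Vamp4, which works between endosomes and the Golgi, led at 50.2 ± 1.52 TPM, just below Vamp1, and Vamp5, known from muscle, was lowest at 2.01 ± 0.0283 TPM. The SNAREs of endosome, Golgi and ER (18 of 19 with an entry) had a median of 30.7 ± 0.216 TPM. They ran from Stx17, a syntaxin of autophagosomes, at 9.09 ± 0.163 TPM (Bet1, at 9.01 and 9.53 TPM, overlapped with it, and was lower in both animals by the second quantification) to Vti1b, an endosomal SNARE, at 116.5 ± 3.06 TPM. All 18 thus stood below Snap47 and 17 of them below Stx1a, by mean TPM. By the second quantification Vti1b too was below Stx1a in both animals, at 96.39 and 134.9 TPM, against 102.7 and 144 TPM.

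Of the other complexins, which are known from the retina, Cplx3 stood at 6.43 ± 0.842 TPM and Cplx4 was listed at 0 TPM in both animals. Of the 7 reported genes of SM and priming proteins, which act on SNAREs before fusion, Cadps, a priming factor of vesicles, had the highest mean at 108 ± 6.92 TPM, and Unc13a, another priming factor, overlapped with it at 107 ± 2.59 TPM. Nsf, the ATPase that pulls spent SNARE bundles apart, stood at 445 and 440 TPM. It was above Vamp2 in replicate 1 and below it in replicate 2, so their values overlapped in the first quantification. By the second, Nsf was below Vamp2 in both animals, at 299 and 423 TPM, against 399.5 and 645 TPM for Vamp2. The lowest of their groups were Stxbp3, an SM protein known from cells outside neurons, at 12.1 ± 3.96 TPM, and Napg, an NSF attachment protein, at 61.8 ± 1.77 TPM. Among 10 other SNARE binding proteins, Snph, which encodes syntaphilin, had the highest mean at 154 ± 0.516 TPM, and Doc2b, a calcium sensor of release, was lowest at 15.3 ± 0.403 TPM. By the second quantification Rph3a, a vesicle protein that binds Rab3, was above Snph in both animals, at 159 and 227 TPM, against 127 and 177 TPM for Snph.

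**Figure D5:**
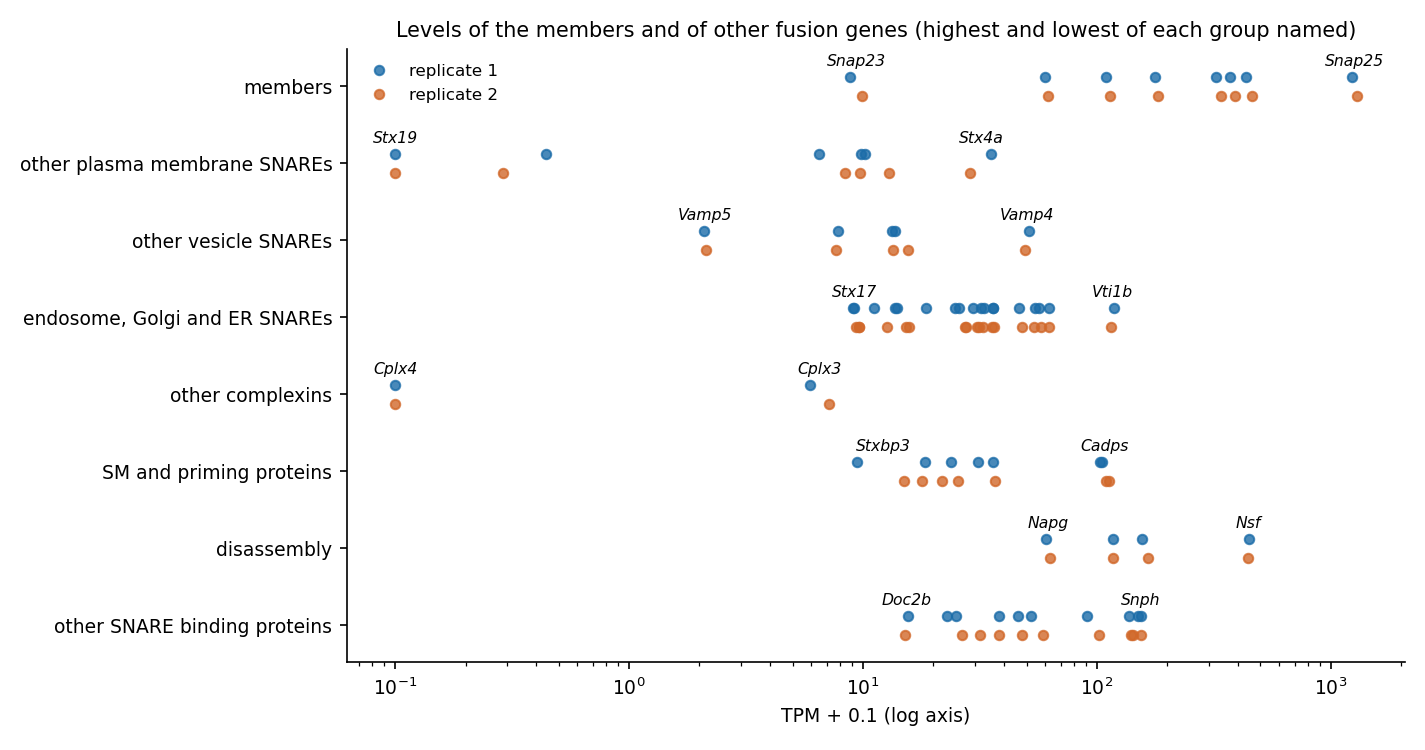
TPM + 0.1 on a log axis for the 8 members and the 52 other fusion genes reported, by group, with a row of points for each animal (replicate 1 above replicate 2) and the highest and lowest gene of each group named. The points at the left end (Stx19 and Cplx4) are genes listed at 0, and Nsf lies beside Vamp2.

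The tissue label was checked against markers of cell types. All 6 pan-neuronal markers were expressed, with a median of 525 ± 24.7 TPM, and so were the 3 markers of excitatory neurons (628 ± 34.6 TPM) and the 3 of inhibitory neurons (70.9 ± 3.29 TPM). Markers of astrocytes (median 50.4 TPM), oligodendrocytes (248 TPM), microglia (16.8 TPM) and endothelium (17.9 TPM) were present as well, and those of striatal neurons had a median of 36.9 ± 0.661 TPM. Of the 2 markers of cerebellar granule cells, Gabra6 was at 0 and Cbln1 at 4.65 and 4.71 TPM. The 3 markers of choroid plexus summed to 726 TPM in replicate 1 and 4.43 TPM in replicate 2, with Ttr at 711 and 2.40 TPM and no marker at 0. The part of this tissue in the ratio of Snap23 was not tested, and the other 7 members had close to equal counts after scaling in both animals.

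Sequence shared with other genes was rare in the members. Of all windows of 50 bases in the leading transcripts, 0.726% of those of Snap25, 1.72% of those of Snap23 and 2.07% of those of Cplx2 were also found in transcripts of other genes. For the leading transcripts of the other 5 members no such window was found.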

How the data were processed

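Per the file headers and the notes deposited with the files, the authors deposited, for each of 2 libraries, gene and transcript tables with expected counts, TPM and FPKM, made from alignments to the transcriptome (mm10, GENCODE M21). Per the file headers, the authors also give the percent of its gene's TPM that each transcript holds, and the posterior SD of its count, treated here as a score. Another transcript table deposited for each library, made directly from reads, gives estimated counts and TPM, summed here over each gene's transcripts. Which programs, versions and settings were used, the read length, and whether strand was used is not given in the sources used here. Effects of Cast alleles on read assignment were not analysed.

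Levels are TPM. Deposited FPKM gave the same order of all 8 members, which is no check, since within a library it is proportional to TPM. Replicates 1 and 2 are the labels' biological replicates. Counts were rounded, and ribosomal RNA, spike-ins and entries without a mouse gene identifier (ENSMUSG) were left out of library sizes (24688669 and 27440152). Any tRNA genes with such an identifier were kept. Ratios are replicate 1 over replicate 2, with TMM scaling and a prior count of 2 in edgeR 4.0.16 (R 4.3.3), over 18284 genes averaging 10 counts or more. A difference of 0.32 on the log2 scale was the smaller of the thresholds, and 2-fold the larger. The coefficient of variation came from an intercept-only fit. The calculation of ratios was tested on simulated data. Intervals are exact 95% binomial intervals and cover counting error only, since reads are not independent molecules. Sequences came from GENCODE M21 transcripts with Python 3.11.15 and Biopython 1.88.

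The members, the lists and the tests were chosen with earlier results of these data known. Named were all 8 members, each transcript reaching 5% of its gene, and the highest and lowest gene of each group of the list. Some listed genes are not reported here and stand in no count of the list. Alternatives covered the second quantification, each animal alone, other scalings (DESeq2 1.42.0 size factors, totals, ERCC), prior count 0.5, no filter, deposited TPM, counts per full length, and protein-coding transcripts or genes only.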

Additional observations from a re-analysis of the deposited data

How the results depend on the processing

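No paired analysis was possible because the 2 libraries form 1 group. Of 163 alternative values, 122 were classed as the same, 40 as moved and 1 as reversed. These counts do not measure how stable the results are. All values with 1 animal left out were classed as the same, but each is 1 of the 2 values averaged in the main setting. The share of Cplx2-201 was fixed, since the gene has 1 annotated transcript. A moved value could lie close, as the Snap25 share of the members' TPM did at 45.17%, against 45.28% in the main setting. Levels and shares cannot change sign, so for them the lack of reversals says nothing. The log2 ratios made up 56 of the alternatives, and 55 of these were classed as the same. That class also held ratios near 0 that changed sign. By ERCC scaling all members but Snap23 went from slightly negative to between 0.03 and 0.06. By the second quantification Snap25 (0.004), Vamp1 (0.025), Stx1a (0.017) and Cplx1 (0.016) turned positive as well. The value classed as reversed was the log2 ratio of Snap23, which was -0.1795 by deposited TPM. By the second quantification that ratio was 0.2487, under the threshold of 0.32. By the second quantification, Snap25 over Snap23 was 85.8, Snap25 over Snap47 5.734, Vamp2 over Vamp1 8.333 and Cplx2 over Cplx1 1.137. The Snap25 share of the members' TPM was then 45.17%, the share of Snap25-201 86.78%, and 0 members were 0.32 apart on the log2 scale. By counts per full length of the leading transcript, the same 4 ratios were 268.5, 6.894, 7.096 and 1.181. With protein-coding transcripts only, the Snap25 share of the members was 45.75%. By share of counts, Snap25-201 held 93.94%, and by deposited TPM 0 members were that far apart. With either animal left out, which with 2 animals gives the other animal's value, the ratios ranged from 131.3 to 141.5, 6.961 to 7.039, 7.263 to 7.497 and 1.147 to 1.154, the Snap25 share from 45.22% to 45.33%, and the Snap25-201 share from 88.69% to 89.87%. In each of these alternatives the 4 ratios stayed above 1. The cause of the moves was not tested. Snap23 had the fewest counts of the members, 227 and 201.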
